A study of Mus musculus with 12 samples.

Results

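The microRNA processing and silencing machinery was described here by 10 genes, Dgcr8, Drosha, Xpo5, Dicer1, Ago1, Ago2, Ago3, Tnrc6a, Tnrc6b and Tnrc6c, of 51467 in the deposited table. They were chosen by role, by matching each gene identifier to its mouse symbol, and the rule uses no measured value, though earlier results of these data were known when the genes were chosen. The study followed mouse embryonic stem cells (ESC, plural ESCs) as they became epiblast-like cells (EpiLC, plural EpiLCs), in 12 libraries, 3 per group. ESCs were grown in serum with LIF and 2i, which is the MEK inhibitor PD0325901 plus the GSK3 inhibitor CHIR99021, and this medium holds cells in the naive state. EpiLCs came from the same cells 56 h after LIF and 2i were withdrawn. In all 4 groups, ESC 4sU, ESC total, EpiLC 4sU and EpiLC total, newly made RNA was marked by feeding cells 500 µM 4-thiouridine (4sU), an analogue of uridine, over 30 min. Labelled RNA was then captured as a measure of nascent transcription, and a second portion was depleted of ribosomal RNA as a measure of total RNA. The methods of the study name 1 line for this transition, a V6.5 ESC line that carries fluorescent reporters of the miR-290 and miR-302 clusters, so the data speak for that line.

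MicroRNAs are made in steps. In the nucleus the Microprocessor, built from the RNase III enzyme DROSHA and its RNA-binding partner DGCR8, cuts hairpins out of primary transcripts. Exportin 5 (Xpo5) carries the hairpins to the cytoplasm, DICER1 cuts off the loop, and an Argonaute protein keeps one strand as its guide. The guide pairs with messages mainly through its seed, bases 2 to 8, and GW182 proteins, encoded by Tnrc6a, Tnrc6b and Tnrc6c, connect Argonaute to the enzymes that remove poly(A) tails and caps. Among the mammalian Argonautes, AGO2 is best known for cutting fully paired targets. Naive mouse ESCs are known for the miR-290 to miR-295 cluster, and the miR-302 cluster comes on as they leave that state.

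Mature microRNAs of these clusters are abundant products of the machinery in such cells, and those shown first share a seed across the 2 clusters. Sequences are from RefSeq on GRCm38, 5′ to 3′, with the seed in capitals.
miR-291a-3p: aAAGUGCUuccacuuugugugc
miR-294-3p: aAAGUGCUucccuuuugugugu
miR-295-3p: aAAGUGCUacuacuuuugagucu
miR-302b-3p: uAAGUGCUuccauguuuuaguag
miR-302d-3p: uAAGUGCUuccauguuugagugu
These 5 carry the seed AAGUGCU. Other strands of the same clusters do not, such as miR-290a-3p (AAGUGCC) and miR-367-3p (AUUGCAC). The cluster hosted by Mir17hg makes a pair with the related seed AAAGUGC, and let-7a carries an unrelated one.
miR-17-5p: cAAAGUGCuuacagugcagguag
miR-20a-5p: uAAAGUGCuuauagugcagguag
let-7a-5p: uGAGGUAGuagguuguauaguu

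Depth and replicate spread set the limits. Summed counts were 3097693 to 5385644 reads in the 6 libraries of 4sU RNA and 9300845 to 21975684 in the 6 of total RNA. All 10 genes were well covered, with 255 reads or more in each library and up to 4703. Levels are given as CPM, read counts scaled to a common library size with TMM factors. ESC replicate 3 stood apart in both assays: on the third principal component it scored -46.6 (4sU) and -30.9 (total), against 13.7 to 27.1 for the other 4 ESC libraries. Most changes and calls that rest on it are therefore given with and without both of its libraries. Means within ESCs include it. As a check of the labels, 9 of 10 naive markers were lower and 6 of 7 primed markers higher in EpiLCs in both assays. The summed level of the naive markers was 3579 to 3866 CPM in ESC total and 324 to 334 CPM in EpiLC total, so ESC replicate 3 kept its naive markers. Fibroblast markers summed to 11.3 to 15.6 CPM in ESC total and 16.6 to 21.6 CPM in EpiLC total, and to 7.87 to 10.03 and 6.53 to 7.63 CPM in 4sU RNA. Of 10 such markers 4 were tested, and 2 were called higher and 1 lower in each assay, with Fap at 0 in all groups. Primitive streak markers summed to 17.2 to 28.1 CPM in ESC total and 20.5 to 31.1 CPM in EpiLC total, and to 20.9 to 28.3 and 43.2 to 96.1 CPM in 4sU RNA. Of their 3 tested genes, 2 were called higher in total RNA and 3 in 4sU RNA, and the part of either cell type in the results was not tested. The study calls the replicates biological, but the labels give only numbers and neither source says that they were separate cultures, so p-values measure the spread between these libraries.

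Of the 10 genes, 5 rose and 1 fell in EpiLC total RNA. Dgcr8, Dicer1, Ago1, Tnrc6a and Tnrc6b rose, and Tnrc6c fell. The shifts were modest, from a log2 fold change (log2FC, EpiLC minus ESC) of -0.59 to 0.84, with a median of 0.37 over the 10 genes against 0.02 over all 14731 genes tested. By limma-voom with a Benjamini-Hochberg adjusted p under 0.05, 5 of 10 genes were higher and 1 was lower, where the shares of all genes so called were 31.4% and 32.1%. No member passed a 2-fold change, a call that 27.6% of all genes reached in either direction. In 4sU RNA 5 of 10 were higher and 2 lower, against 23.7% and 28.8% of all genes, and again none passed a 2-fold change, against 25.5%. With 10 genes, these counts are not read as a difference from the background. In bulk RNA, fewer cells of a kind and less RNA per cell cannot be told apart.

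**Figure D1:**
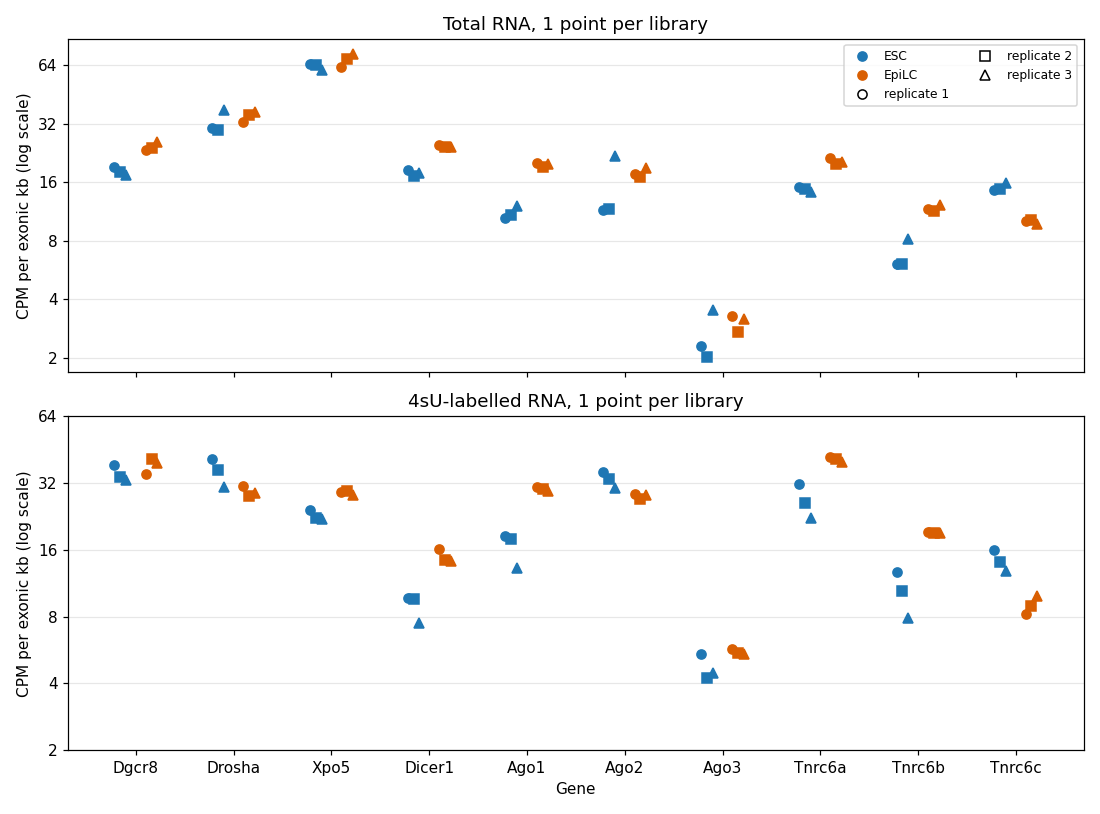
Level of each gene in each of the 12 libraries, in CPM per exonic kb on a log scale, for total RNA (top) and 4sU-labelled RNA (bottom); colours mark cell type and shapes mark the replicate number. In total RNA, Xpo5 lies highest and Ago3 lowest in both cell types, and the ESC replicate 3 triangle of Ago2 lies above both other ESC points.

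Of the 2 Microprocessor subunits, Dgcr8 rose in total RNA and Drosha fell in 4sU RNA, the latter close to the threshold. Dgcr8 (ENSMUSG00000022718.11, chr16:18253948-18289249, minus strand) measured 86.9, 81.9 and 79.2 CPM in the 3 ESC total libraries and 106, 108 and 117 CPM in the EpiLC total libraries. Each EpiLC library lay above each ESC library, and Dgcr8 rose by a log2FC of 0.41 ± 0.08 (SE, limma-voom adjusted p = 0.000596), or 1.33-fold. In 4sU RNA Dgcr8 gave 176, 154 and 150.2 CPM in ESCs and 159.8, 187 and 178 CPM in EpiLCs. These ranges overlapped, and the nascent log2FC of 0.13 ± 0.09 did not pass (limma-voom adjusted p = 0.241).

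Drosha (ENSMUSG00000022191.15, chr15:12824815-12935290, plus strand) encodes the catalytic subunit. Its total level was 139, 135 and 172 CPM in ESCs and 150.1, 163 and 168 CPM in EpiLCs, with the highest ESC value in replicate 3. The groups overlapped only through that library, and the log2FC was 0.12 ± 0.11 (limma-voom adjusted p = 0.318), with a 95% interval of -0.10 to 0.35. Its 4sU level was 187, 168 and 141 CPM in ESCs and 142, 128 and 132 CPM in EpiLCs. Nascent Drosha fell by 0.30 ± 0.12 on the log2 scale, close to the threshold (limma-voom adjusted p = 0.0447). That call was lost when any of 9 libraries was left out or under several other settings. Without both ESC replicate 3 libraries, nascent Drosha changed by -0.40 ± 0.08 (limma-voom adjusted p = 0.000193) and total Drosha by 0.23 ± 0.06 (limma-voom adjusted p = 0.00354), in opposite directions.

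Dgcr8 holds 2 microRNA hairpins in its own message, which the Microprocessor is known to cut. Both lie in exon 2 of its principal transcript. One, miR-3618 (chr16:18284550-18284637), is in the 5′ UTR, and the other, miR-1306 (chr16:18284239-18284317), is in the coding sequence. Their mature strands are shown with the seed in capitals.
miR-3618-5p: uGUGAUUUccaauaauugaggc
miR-3618-3p: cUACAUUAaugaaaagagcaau
miR-1306-5p: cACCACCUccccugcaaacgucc
miR-1306-3p: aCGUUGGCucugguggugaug
The 2 hairpin genes cover 167 bases, or 3.69% of the exonic length of Dgcr8. How a read that touches both Dgcr8 and a hairpin gene was counted is not given in the sources used here. Drosha, Tnrc6a and Tnrc6b also overlap another gene on their strand, over 0.473% to 1.75% of their exonic length, and the other 6 members overlap none.

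Xpo5 (ENSMUSG00000067150.5, chr17:46202855-46242299, plus strand), the exporter, had 240.2, 237 and 224 CPM in ESC total and 232, 256 and 271 CPM in EpiLC total. The groups overlapped, and the log2FC of 0.11 ± 0.07 did not pass (limma-voom adjusted p = 0.179), with a 95% interval of -0.04 to 0.26. In 4sU RNA its level was 90.2, 82.7 and 82.2 CPM in ESCs and 108, 109 and 105 CPM in EpiLCs. Nascent Xpo5 thus rose by 0.34 ± 0.09 (limma-voom adjusted p = 0.00501), with no overlap between the cell types.

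Dicer1 (ENSMUSG00000041415.10, chr12:104687742-104751952, minus strand), the cytoplasmic RNase III, was among the tightest measurements. ESC total libraries held 181, 170.1 and 177 CPM and EpiLC total libraries 244, 239 and 241 CPM. Dicer1 rose in total RNA by 0.46 ± 0.08 (limma-voom adjusted p = 0.000212). In 4sU RNA it went from 95.9, 94.6 and 74.0 CPM to 159.8, 142 and 141 CPM, a rise of 0.74 ± 0.10 (limma-voom adjusted p = 2.38e-05). In both assays each EpiLC library exceeded each ESC library.

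Of the Argonautes, Ago1 passed in both assays and Ago2 and Ago3 in neither with all 12 libraries. Ago1 (ENSMUSG00000041530.16, chr4:126435012-126468583, minus strand) had the largest fitted rise of the 10 genes in total RNA: 75.3, 78.6 and 87.4 CPM in ESCs and 145, 139 and 144 CPM in EpiLCs, a log2FC of 0.84 ± 0.10 (limma-voom adjusted p = 4.47e-06). Its 4sU level rose by a like amount, from 134, 129.9 and 96.0 CPM to 223, 218 and 214 CPM, a log2FC of 0.87 ± 0.11 (limma-voom adjusted p = 1.24e-05). No ESC library reached the lowest EpiLC library in either assay. Without both ESC replicate 3 libraries, the total RNA rise of Ago1 was 0.89 ± 0.06, below that of Tnrc6b at 0.95 ± 0.07. Ago3 (ENSMUSG00000028842.15, chr4:126332732-126429556, minus strand), the neighbour of Ago1 on the same strand, was the least abundant member, at 35.9, 31.5 and 55.0 CPM in ESC total and 51.1, 42.4 and 49.6 CPM in EpiLC total. The highest of these 6 values came from ESC replicate 3. Its total log2FC was 0.29 ± 0.16 (limma-voom adjusted p = 0.127), and without both ESC replicate 3 libraries it was 0.50 ± 0.10 (limma-voom adjusted p = 0.000159). In 4sU RNA, Ago3 measured 84.6, 65.7 and 69.1 CPM in ESCs and 88.8, 85.4 and 84.9 CPM in EpiLCs, a log2FC of 0.25 ± 0.17 that did not pass (limma-voom adjusted p = 0.248).

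Ago2 (ENSMUSG00000036698.10, chr15:73095844-73184840, minus strand), the slicing Argonaute, depended most on ESC replicate 3. In total RNA it measured 159, 161 and 301 CPM in ESCs and 243, 233 and 261 CPM in EpiLCs. The first 2 ESC libraries lay below all EpiLC libraries and the third above them all. In 4sU RNA it measured 492, 459.6 and 415 CPM in ESCs and 391, 373 and 389 CPM in EpiLCs, so the order of the cell types was the opposite one and the groups did not overlap. With all 12 libraries neither change passed, at 0.33 ± 0.18 for total RNA (limma-voom adjusted p = 0.111) and -0.25 ± 0.18 for 4sU RNA (limma-voom adjusted p = 0.274). Without both ESC replicate 3 libraries, total Ago2 rose by 0.62 ± 0.06 (limma-voom adjusted p = 1.33e-08) and nascent Ago2 fell by 0.31 ± 0.06 on the log2 scale (limma-voom adjusted p = 0.00027). Leaving out the ESC total library of replicate 3 alone gave an Ago2 mRNA log2FC of 0.62 (limma-voom adjusted p = 3.21e-06) and an Ago2 nascent log2FC of -0.25 (limma-voom adjusted p = 0.0086).

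The GW182 genes split. Tnrc6a (ENSMUSG00000052707.8, chr7:123124181-123195296, plus strand) gave 124, 122 and 116 CPM in ESC total and 174, 163 and 167 CPM in EpiLC total, a rise of 0.47 ± 0.10 (limma-voom adjusted p = 0.000609). Its 4sU level went from 259, 213 and 182 CPM to 345, 337 and 325 CPM, a rise of 0.63 ± 0.10 (limma-voom adjusted p = 0.000121). Tnrc6b (ENSMUSG00000047888.9, chr15:80711319-80941086, plus strand) had a larger fitted rise, from 105, 105 and 142 CPM to 202, 197 and 211 CPM in total RNA, a log2FC of 0.82 ± 0.14 (limma-voom adjusted p = 0.000107). In 4sU RNA it went from 220.2, 180.0 and 137 CPM to 332, 330.0 and 329 CPM, a log2FC of 0.90 ± 0.14 (limma-voom adjusted p = 0.000124). Tnrc6c (ENSMUSG00000025571.13, chr11:117654289-117763439, plus strand) went the other way. It had 135, 136 and 147 CPM in ESC total against 93.1, 95.04 and 90.2 CPM in EpiLC total, a fall of 0.59 ± 0.08 on the log2 scale (limma-voom adjusted p = 2.67e-05). Nascent Tnrc6c went from 148, 131 and 119 CPM to 75.9, 82.9 and 91.4 CPM and fell by 0.68 ± 0.10 on the log2 scale (limma-voom adjusted p = 5.09e-05). For all 3 GW182 genes, the libraries of the cell types did not overlap in either assay, and the direction was the same in total and 4sU RNA. The share of all genes whose libraries separate in this way was not counted. Separation is therefore not read as a trait of these genes or of the other members.

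**Figure D2:**
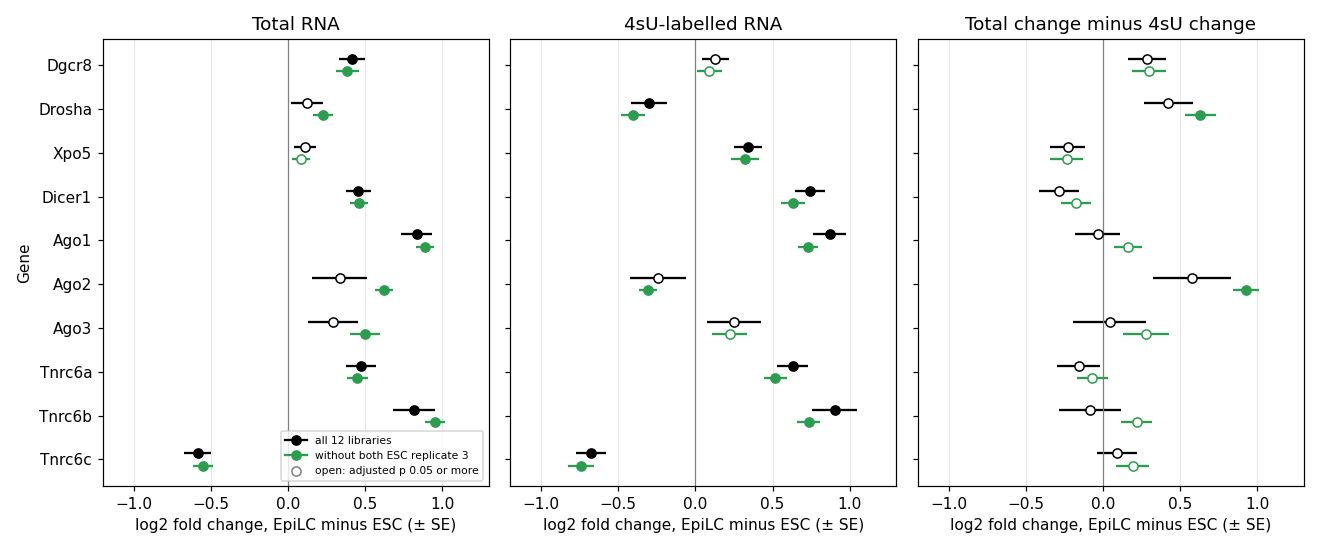
Log2 fold change, EpiLC minus ESC, with its SE, for total RNA (left), 4sU-labelled RNA (middle) and their difference (right), from all 12 libraries (black) and without both ESC replicate 3 libraries (green); filled points had an adjusted p under 0.05. Tnrc6c lies below 0 in both assays (-0.59 and -0.68), and the Ago2 difference moves from 0.58 to 0.93 when ESC replicate 3 is left out.

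To ask whether a change in mRNA level went beyond the change in nascent RNA, the interaction of cell type and assay was tested. It is called the stability change and is the total change minus the 4sU change, which reads as stability only where levels are near steady state. None of the 10 genes passed by limma-voom, edgeR's quasi-likelihood test or DESeq2, while 4, 2 and 2 of them had an unadjusted p under 0.05 by these tools. In all genes, 2.72% were called higher, 1.88% lower and 1.54% past a 2-fold change. The 4sU and total portions came from the same labelled samples, although the labels do not say that a number marks one sample. With the replicate number as a block, 0 of 10 genes passed either, while 1077 of all genes were called higher and 654 lower in place of 401 and 277. The median over the 10 genes was 0.00, against 0.11 over all genes. The largest value was that of Ago2, at 0.58 ± 0.25 (limma-voom adjusted p = 0.19), followed by Drosha at 0.42 ± 0.16 (limma-voom adjusted p = 0.127). Dicer1 was lowest, at -0.28 ± 0.13 (limma-voom adjusted p = 0.203). Ago1, Ago3, Tnrc6b and Tnrc6c lay between -0.08 and 0.09, with SEs of 0.13 to 0.24.

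ESC replicate 3 decided this result too. Without both of its libraries, the stability changes of Ago2, 0.93 ± 0.08 (limma-voom adjusted p = 1.67e-06), and Drosha, 0.63 ± 0.10 (limma-voom adjusted p = 0.000288), passed, so that 2 of 10 members were higher and 0 lower. All genes moved as well under this setting, to 12.7% called higher and 6.99% lower. In total RNA 8 of 10 members were then higher and 1 lower, against 35.7% and 36.7% of all genes, with Drosha, Ago2 and Ago3 added to the 5 above. In 4sU RNA 5 were higher and 3 lower, against 26.1% and 33.2%, with Ago2 added to Drosha and Tnrc6c. With 2 ESC libraries left per assay, this fit rests on the spread pooled over groups.

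The ratio of total to 4sU RNA also ranks the members within a cell type. This relative stability is log2 of total CPM over 4sU CPM of the same replicate number, and its zero depends on the scaling between assays. Xpo5 was highest in both cell types, at 1.46 ± 0.05 in ESCs and 1.23 ± 0.14 in EpiLCs (SD, n = 3), which put it at the percentiles 86.2 and 81.5 of all genes. Dicer1 came second, at 1.01 ± 0.22 and 0.71 ± 0.09. Their replicate ranges overlapped neither each other nor the next gene. Tnrc6c and Drosha followed, near the median of all genes of 0.03 in ESCs and 0.15 in EpiLCs.

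On average, the other 6 genes had more 4sU than total CPM in both cell types. The lowest in ESCs was Ago2, with replicate values of -1.63, -1.52 and -0.47 and an SD of 0.64. In EpiLCs its values were -0.69, -0.68 and -0.58, and the lowest place was that of Tnrc6a, with values of -0.99, -1.05 and -0.96. Dgcr8 stood at -0.95 ± 0.06 in ESCs and -0.66 ± 0.11 in EpiLCs, with no overlap between them. Over the 10 genes the median was -0.58 in ESCs and -0.63 in EpiLCs, and 3 and 4 members lay above the median of all genes. From Tnrc6c down to Ago2, neighbours in the ESC order overlapped.

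**Figure D3:**
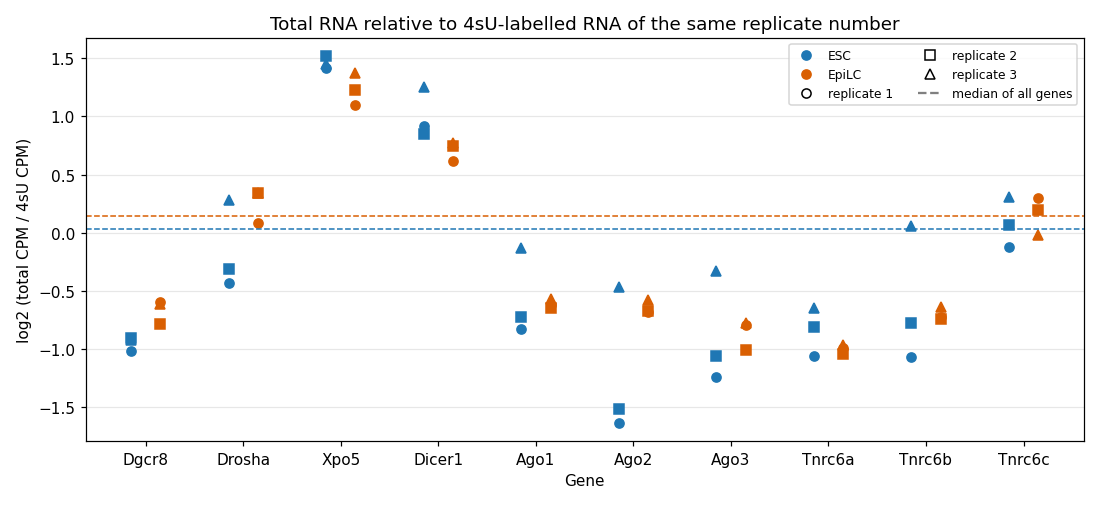
Relative stability, log2 of total CPM over 4sU CPM, for each gene and replicate number in ESCs (blue) and EpiLCs (orange); dashed lines are the medians of all genes (0.03 and 0.15). Xpo5 and Dicer1 lie above both lines, and ESC replicate 3 lies above the other ESC points for every gene but Dgcr8 and Xpo5.

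Levels of different genes can be compared only per length, so CPM was divided by the exonic length of each gene. In ESC total RNA the order was led by Xpo5 (63.0 ± 2.29 CPM per kb) and Drosha (32.5 ± 4.398), followed by Dgcr8 (18.2 ± 0.85) and Dicer1 (17.9 ± 0.57), which overlapped. Tnrc6c and Tnrc6a came next, at 15.1 and 14.7 CPM per kb, with overlapping ranges. The mean of Ago2 was also 15.1 CPM per kb, but it rested on ESC replicate 3. Its values in replicates 1 to 3 were 11.58, 11.72 and 21.96 CPM per kb. In replicates 1 and 2, Ago2 lay below every Tnrc6c and Tnrc6a library and within the range of Ago1 (10.42 to 12.09). Ago1 (11.1 ± 0.86), Tnrc6b (6.77 ± 1.25) and Ago3 (2.61 ± 0.80) closed the order. In EpiLC total RNA the ends stayed the same, with Xpo5 at 68.3 ± 5.28 and Ago3 at 3.06 ± 0.30 CPM per kb, while Tnrc6c (10.03 ± 0.27) stood next to last and Ago1 stood at 19.8 ± 0.43, beside Tnrc6a at 20.5 ± 0.67. In 4sU RNA Drosha, Dgcr8, Ago2 and Tnrc6a led in ESCs, each overlapping its neighbour, and Tnrc6a (41.0 ± 1.23) and Dgcr8 (38.6 ± 3.04) led in EpiLCs.

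Per length, the make-up of the Argonaute family differed between the cell types without overlap of libraries for Ago1 and Ago2. Shares add up to a fixed total and restate the levels above, so a share can fall without a fall in level. The fitted log2FC of Ago2 in total RNA was 0.33 ± 0.18, which did not pass. In ESC total RNA, Ago2 made up 46.9%, 46.9% and 57.4% of the sum of Ago1 to Ago4, and Ago1 42.2%, 43.5% and 31.6%. In EpiLC total RNA the shares were 42.3%, 42.8% and 44.4% for Ago2 and 47.9%, 48.5% and 46.6% for Ago1. The mean difference for Ago2 was -7.20 percentage points in total RNA and -17.2 in 4sU RNA, and the gap between these was not tested. Without both ESC replicate 3 libraries the differences were -3.70 and -16.3 percentage points, so the total RNA value rests in part on that replicate. In 4sU RNA Ago2 went from 59.7%, 59.8% and 62.6% to 43.3%, 42.8% and 44.2%, while Ago1 went from 30.8%, 32.1% and 27.4% to 47.0%, 47.5% and 46.1%. No library of one cell type overlapped the other for either gene. A two-sided exact permutation test gave p = 0.1 for each, which is the smallest value that 3 against 3 libraries allow. Ago4, which is no member, made up 1.48% to 2.00% in total RNA. The summed family level was 29.3 ± 7.75 CPM per kb in ESC total and 41.5 ± 1.60 in EpiLC total (two-sided exact permutation p = 0.1).

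Within the GW182 family, the share of Tnrc6c fell and those of its paralogs rose. Because shares add up to a fixed total, these restate the levels above and are no further result. Tnrc6c made up 40.8%, 41.4% and 41.5% of the family in ESC total and 23.4%, 24.7% and 23.1% in EpiLC total. Tnrc6b went from 16.9%, 16.99% and 21.4% to 27.1%, 27.4% and 28.8%, and Tnrc6a from 42.3%, 41.6% and 37.0% to 49.5%, 47.9% and 48.2%. In 4sU RNA the share of Tnrc6c was lower throughout, at 28.1% ± 1.74 in ESCs and 13.1% ± 1.31 in EpiLCs (SD, n = 3). Each of these shares separated the cell types without overlap (two-sided exact permutation p = 0.1, the smallest value possible). The summed family level was 36.6 ± 1.49 CPM per kb in ESC total and 42.3 ± 0.67 in EpiLC total, a ratio of 1.15 (exact permutation p = 0.1).

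**Figure D4:**
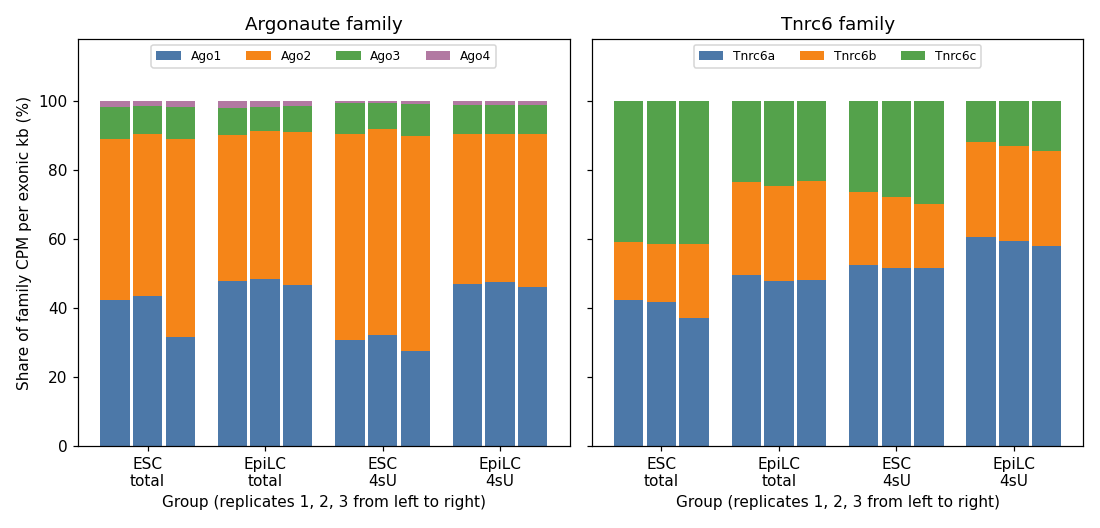
Share of each paralog in the summed level of its family, in percent of CPM per exonic kb, for the Argonautes (left) and the GW182 genes (right), with 1 bar per library. Tnrc6c narrows from 41.2% to 23.7% on average in total RNA, and in 4sU RNA Ago2 narrows from 60.7% to 43.5%.

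The messages of the machinery are long, and this is a property the choice of genes did not use. The principal transcripts of the 10 genes had a median length of 8515 bases, against 3108 over 12150 protein-coding genes tested, and a median of 23 exons against 9. Their 3′ UTRs had a median of 3219.5 bases against 1066. Those of Ago3 (12742 bases), Tnrc6b (11609) and Ago2 (11064) lie at the percentiles 99.9, 99.9 and 99.8 of that set, and that of Drosha, at 168 bases, lies at the percentile 8.4. The GC content of the 3′ UTRs was like that of all genes, at a median of 44.8% against 44.5%.

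Seed matches, the complement of bases 2 to 8, were counted on the message strand of these 3′ UTRs. AGCACTT, the match to miR-294 and miR-302, was present in 3 of 10 members, against 16.5% of all genes and 36.8% of genes with a 3′ UTR of 2000 bases or more. CTACCTC, the match to let-7, was present in 2 of 10, against 9.9% and 20.8%. GCACTTT, the match to miR-17, which shares 6 letters with the first, was present in 6 of 10, against 14.2% and 31.1%. ATGCTGC, the match to miR-103, a widely expressed family, was present in 7 of 10, against 12.6% and 28.0%. The 3′ UTRs of Ago3 (12742 bases), Tnrc6b (11609) and Ago2 (11064) are far longer than 2000 bases, so neither share matches the members for length. With 10 genes, these counts are not read as a difference from either share. A match is a description of letters and not a sign of binding. The sites of the cluster seed are shown because they lie in genes of the machinery itself (mm10, match in capitals, position counted from the first base of the 3′ UTR).
Ago3 base 3776, chr4:126341692-126341698, minus strand: acaggcggtgtgAGCACTTggagcc
Ago3 base 7156, chr4:126338312-126338318, minus strand: gactttaattgcAGCACTTaagagg
Ago3 base 9952, chr4:126335516-126335522, minus strand: tcaaatgttaagAGCACTTattgtg
Tnrc6b base 1852, chr15:80931328-80931334, plus strand: ggggaacatgctAGCACTTgtgtga
Tnrc6b base 6242, chr15:80935718-80935724, plus strand: gccttttatcccAGCACTTgagagg
Tnrc6c base 1283, chr11:117762134-117762140, plus strand: ggcggccggccgAGCACTTggacgt
The let-7 matches are shown for Ago2, whose stability value was the highest of the 10 though not past the threshold. This choice used a measured value, and a link between match and stability was not tested. Ago3 also has a let-7 match, at base 10427, with a stability change of 0.04 ± 0.24.
Ago2 base 5177, chr15:73101725-73101731, minus strand: gatgcataaaagCTACCTCtgactt
Ago2 base 6861, chr15:73100041-73100047, minus strand: gtggcctctgtcCTACCTCcaggca
Ago2 base 8919, chr15:73097983-73097989, minus strand: tacaatgtggatCTACCTCagttaa
Of the genes with the cluster seed match, Tnrc6b rose and Tnrc6c fell in total RNA. Ago3 did not pass with all 12 libraries, and rose by 0.50 ± 0.10 without both ESC replicate 3 libraries. A link between the match and these changes was not tested.

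The transcripts that the machinery works on were read from the hairpin genes of these clusters. Reads of this kind are longer than a mature microRNA and come from primary or precursor RNA. The 5 hairpins of the miR-302 cluster summed to 0.202 ± 0.177 CPM in ESC total, on 1 to 7 reads a library, and 11.6 ± 3.17 CPM in EpiLC total, on up to 137 reads a library. In 4sU RNA they summed to 2.79 ± 1.27 CPM in ESCs and 85.7 ± 2.34 CPM in EpiLCs. All 5 passed as higher in both assays (limma-voom). None of them reached 3 CPM in any ESC library, so they entered the test only through EpiLC libraries. Their calls therefore add no support beyond the levels themselves. In total RNA, Mir367 rested on 1, 0 and 0 reads in ESCs and 6, 2 and 2 in EpiLCs. Mir17hg, the host of the miR-17 to miR-92 cluster, whose hairpin genes overlap 15.2% of its exonic length, rose from 43.5 ± 9.96 to 116 ± 2.97 CPM in total RNA, a log2FC of 1.42 ± 0.15 (limma-voom adjusted p = 1.2e-06), and from 549 ± 97.5 to 1082 ± 55.1 CPM in 4sU RNA.

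The miR-290 to miR-295 hairpins fell in 4sU RNA, 6 of 7 tested. Their sum was 252 ± 34.3 CPM in ESC 4sU, with a lowest value of 217, and 134 ± 18.4 CPM in EpiLC 4sU, with a highest value of 155. In total RNA it was 29.6 ± 10.95 CPM in ESCs and 20.2 ± 3.21 CPM in EpiLCs, and the ranges, 17.01 to 36.6 and 17.2 to 23.5, overlapped through ESC replicate 3. Hairpins of one cluster are neighbours and not independent genes, so counts of them are not read as a difference from the background. Of the 13 cluster genes tested, 6 were higher and 2 lower in total RNA, against 31.4% and 32.1% of all genes. In 4sU RNA 6 of them were higher and 6 lower, against 23.7% and 28.8%. Without both ESC replicate 3 libraries, 6 were higher and 7 lower in each assay, so all 7 tested hairpins of miR-290 to miR-295 were then lower in total RNA, from -0.65 ± 0.17 for Mir292 to -1.17 ± 0.29 for Mir295. With all 12 libraries, the 2 that fell in total RNA were Mir294, by 0.94 ± 0.35 on the log2 scale (limma-voom adjusted p = 0.0291), and Mir295, by 0.98 ± 0.34 (limma-voom adjusted p = 0.0208). Both calls rested on few reads. In total RNA Mir294 had 37, 33 and 15 reads in ESCs and 11, 7 and 9 in EpiLCs. Mir295 had 53, 57 and 17 reads in ESCs and 18, 9 and 13 in EpiLCs. The reporters that this line carries for the miR-290 and miR-302 clusters are present in all 4 groups, and their part in these reads was not tested.

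**Figure D5:**
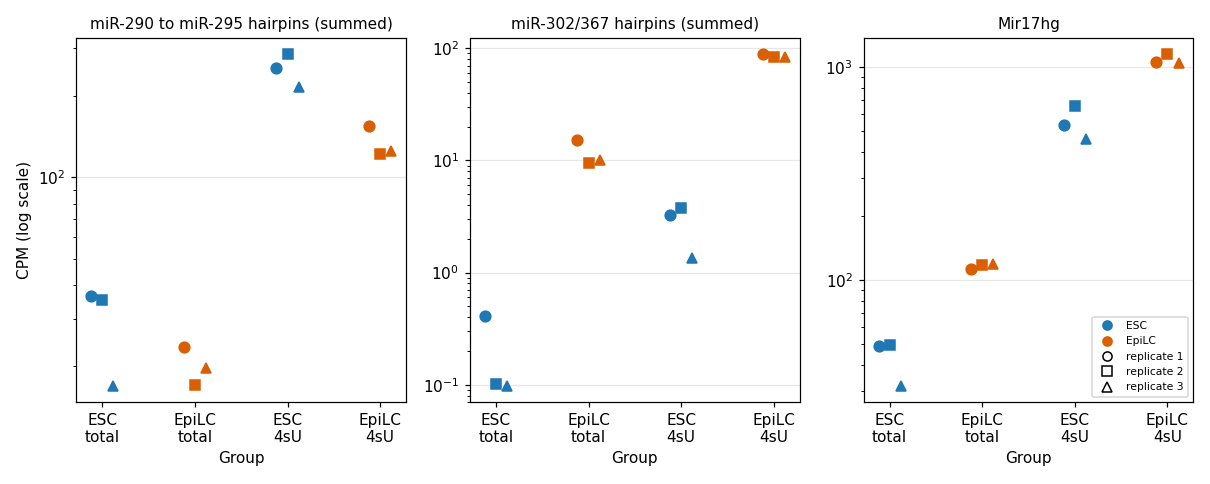
Summed CPM (log scale) of the hairpin genes of miR-290 to miR-295 (left) and the miR-302 cluster (middle) and CPM of the host gene Mir17hg (right), with 1 point per library. In 4sU RNA the miR-302 sum is 2.79 CPM in ESCs and 85.7 CPM in EpiLCs, while the miR-290 to miR-295 sum is 252 and 134 CPM.

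The wider pathway was read from 5 lists. Over all genes, 31.4% were higher and 32.1% lower in total RNA, and 23.7% and 28.8% in 4sU RNA. Without both ESC replicate 3 libraries these shares were 35.7% and 36.7%, and 26.1% and 33.2%. With few genes per list, the list counts are not read as a difference from these shares. Of 8 Microprocessor cofactors, 1 was higher and 2 were lower in total RNA, with a list median of 0.03. The splicing factor Srsf3 rose from 259 ± 23.9 to 331 ± 8.75 CPM (0.35 ± 0.08, limma-voom adjusted p = 0.000888), and Ilf2 fell by 0.34 ± 0.06 on the log2 scale (limma-voom adjusted p = 0.000286). In 4sU RNA 3 of these 8 were higher and 0 lower, beside a median of 0.29. Leaving out both ESC replicate 3 libraries gave 1 higher and 4 lower in total RNA, and 5 higher and 0 lower in 4sU RNA. Of 4 export and Dicer partners, 1 was higher and 0 lower in total RNA. Ran, the GTPase that works with exportins, was lower as well without both ESC replicate 3 libraries. The higher gene was Prkra, which encodes the DICER1 partner PACT and rose from 18.4 ± 1.98 to 31.5 ± 1.31 CPM (0.77 ± 0.11, limma-voom adjusted p = 1.78e-05).

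Of the 14 genes for Argonaute loading and partners, 13 were tested, and 2 were higher and 3 lower in total RNA, with a median of -0.14. These counts became 3 and 8 without both ESC replicate 3 libraries. Mov10, an RNA helicase that binds Argonautes, fell from 119 ± 15.6 to 32.9 ± 3.97 CPM, by 1.86 ± 0.12 on the log2 scale (limma-voom adjusted p = 8.6e-09). The chaperone Hsp90aa1, which helps load small RNA duplexes, fell by 1.05 ± 0.08 on the log2 scale (limma-voom adjusted p = 4.39e-08), from 1764 ± 87.0 to 849.6 ± 11.5 CPM. Of 9 genes for tailing and turnover of microRNAs, 5 were higher and 2 lower, or 6 and 2 without both ESC replicate 3 libraries. The inhibitors of let-7 maturation rose: Lin28b from 43.6 ± 10.3 to 222 ± 16.4 CPM (2.35 ± 0.15, limma-voom adjusted p = 5.7e-09) and Lin28a from 304 ± 149 to 965 ± 6.54 CPM (1.80 ± 0.35, limma-voom adjusted p = 0.000407). Lin28a rested in part on ESC replicate 3, with a log2FC of 1.31 ± 0.06 without both of its libraries.

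Of 23 silencing effectors, which act downstream of the GW182 proteins, 5 were higher and 5 lower in total RNA, with a median of -0.01, or 7 and 6 without both ESC replicate 3 libraries. Eif4e2, a cap-binding repressor of translation, fell from 287 ± 7.10 to 137 ± 2.67 CPM, by 1.06 ± 0.07 on the log2 scale (limma-voom adjusted p = 8.15e-09). The catalytic decapping enzyme Dcp2 fell by 0.82 ± 0.11 on the log2 scale (limma-voom adjusted p = 1.67e-05). Dcp2 rested in part on ESC replicate 3, with a fall of 0.66 ± 0.05 without both of its libraries. In 4sU RNA 6 effectors were higher and 5 lower. For the stability change, 3 genes of the 5 lists passed, beside 2.72% of all genes called higher and 1.88% lower. All 3 were lower: Ilf2 (-0.43), Hsp90aa1 (-0.49) and Ptges3 (-0.68), a cochaperone of HSP90. Both the count and the single direction rested on ESC replicate 3. Without both of its libraries, 22 of 57 tested list genes passed, 7 higher and 15 lower, against 12.7% and 6.99% of all genes. The higher ones included Tut4 (0.51 ± 0.12), which adds uridines to RNA ends, and Patl1 (0.49 ± 0.11), a decapping activator, and the lower ones Lin28a (-0.92 ± 0.10). Tut4, Patl1 and Ran were named after their values were seen.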

How the data were processed

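Read counts per gene were deposited by the authors as whole numbers, not normalized. They trimmed 50-base single-end reads with cutadapt 1.14, aligned them to mm10 with STAR 2.5.3a, kept unique positions, and counted reverse-stranded reads over GENCODE M14 exons with featureCounts 1.5.3. Unique alignment can lower counts in sequence shared between paralogs. The SEs reflect the spread between libraries and do not cover such a loss. The members and lists were chosen with earlier results of these data known. A gene was tested if 3 or more libraries each reached 3 CPM, which 14731 of 51467 did. After the study's methods, limma-voom (limma 3.58.1; trimmed-mean TMM factors from edgeR 4.0.16; R 4.3.3) was fitted to all 12 libraries with a coefficient for each of the 4 groups; p-values were Benjamini-Hochberg adjusted over all genes, and the script was tested on simulated data. DESeq2 1.42.0 and edgeR's quasi-likelihood test were alternatives. Named genes were the 10 members and, from each list, the 2 with the largest total RNA change among those passing with a mean of at least 10 CPM. Transcript features came from GENCODE M21 (same build) and microRNA sequences from RefSeq; protein sequences were not used here.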

Additional observations from a re-analysis of the deposited data

Results flagged for a closer look

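No group has more than 3 libraries, so single samples were not tested as outliers. For 3 pathway genes the change between cell types differed between total and 4sU RNA by the interaction test (limma-voom adjusted p under 0.05). Ptges3, a cochaperone of HSP90, gave a difference of -0.68 (adjusted p = 0.0134). Its level was 217 ± 3.70 CPM in ESC total and 193 ± 6.01 CPM in EpiLC total, against 101.3 ± 15.7 and 144 ± 5.93 CPM in 4sU RNA. Hsp90aa1 gave -0.49 (adjusted p = 0.0377) and Ilf2 -0.43 (adjusted p = 0.0309). Without both ESC replicate 3 libraries the values were -0.57, -0.47 and -0.46, all with a lower adjusted p. Under that setting 22 of 57 tested genes of the lists passed, 7 higher and 15 lower, against 12.7% and 6.99% of all genes. These 3 are thus the calls of the fit with all 12 libraries and not the full set.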

How the results depend on the processing

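ESC replicate 3 set most of the limits. The count of members higher in total RNA was 8 in place of 5 with sample quality weights and without both ESC replicate 3 libraries, and 5 to 8 when 1 library was left out (8 without ESC total replicate 3). The count with higher stability was 2 in place of 0 with quality weights and without both, and 0 to 2 when 1 library was left out (2 without ESC total replicate 3, 1 without ESC 4sU replicate 3). The count lower in 4sU RNA was 1 in place of 2 with median-of-ratios size factors, library totals alone, TMM within each assay, no expression filter, a minimum of 10 CPM, DESeq2 and only the 6 libraries of the contrast, where Drosha lost its call, and 1 to 3 when 1 library was left out. A 2-fold change passed for 1 member in 4sU RNA without ESC 4sU replicate 1, and for 0 otherwise. Some values near zero changed sign, with no call.

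The Ago1 stability log2FC was 0.031 with library totals, 0.075 with quality weights, 0.16 without both ESC replicate 3 libraries and -0.15 to 0.11 when 1 library was left out. The Ago3 stability log2FC was -0.044 with median-of-ratios factors, -0.013 with TMM within each assay, -0.048 with no filter, -0.010 at 10 CPM, -0.00037 with edgeR, -0.089 with DESeq2 and -0.13 to 0.25 when 1 library was left out. The Tnrc6b stability log2FC was 0.071 with quality weights, 0.22 without both and -0.24 to 0.088 when 1 library was left out. The Tnrc6c stability log2FC was -0.011 with no filter and -0.0045 to 0.16 when 1 library was left out. The members' median relative stability in EpiLCs was -0.78 with median-of-ratios factors, -0.79 with library totals, -0.85 with TMM within each assay and -0.74 to -0.60 when 1 library was left out. Without division by length, differences in share (EpiLC minus ESC, percentage points) were -14.7 for Ago2 in 4sU RNA, 4.11 and 3.57 for Tnrc6a and 12.9 and 10.5 for Tnrc6b in total and 4sU RNA. Of 680 member values under alternatives, 622 kept direction and call. The cause of these shifts was not tested.

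Per the labels, each labelled RNA sample was split into its 4sU and total portions, but they do not say that a number marks one sample. Deviations of same-numbered 4sU and total libraries correlated over 0.1 in ESCs (r = 0.174, 0.30 and 0.409) and under it in EpiLCs (0.0714, 0.0299 and 0.0194), so the numbers did not enter the test, although relative stability was taken per number. A replicate block gave 5 members higher and 1 lower in total RNA, 5 and 2 in 4sU RNA and 0 for stability. Over all genes it called 1077 higher and 654 lower for stability, in place of 401 and 277. The stability calls of all genes also moved with scaling: 59.1% were higher, against 35.8% with median-of-ratios factors (277 higher, 497 lower), 73.3% with library totals (611, 223), 42.6% with TMM within each assay, 35.4% with no filter (123, 224), 39.1% at 10 CPM (298, 464) and 34.5% with DESeq2 (417, 790). With quality weights they were 1881 and 963. When 1 library was left out they ran from 116 to 1319 higher and 110 to 726 lower.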
